A study of Mus musculus with 8 samples.

Results

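The proteasome is described here through 50 genes of the 19505 named on a mouse whole-transcript array, all those whose symbol begins with Psma, Psmb, Psmc, Psmd, Psme, Psmf or Psmg followed by a digit. They were measured in cDC1, the type 1 conventional dendritic cells that present antigen to CD8 T cells, sorted from the spleens of naive wild-type C57BL/6 mice. The labels give 4 arrays of a TMRM/MGhi and 4 of a TMRM/MGlo fraction, and all 8 share strain, organ and untreated state. TMRM is a dye that accumulates in mitochondria according to their membrane potential, MG is not spelled out in the labels, and age, sex and any pooling of animals are not given in the sources used here. No label says whether the replicates came from separate mice or sorts, so the p-values rest on a spread among these samples that may be no more than technical. Each gene had 1 probe set, and no member was removed by a filter on low values. All 50 had means above the negative control median of the arrays (6.86 in the TMRM/MGhi and 6.76 in the TMRM/MGlo fraction, log2 signal).

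The proteasome degrades proteins that carry ubiquitin chains. Its barrel-shaped 20S core is built from alpha rings, which gate the entrance, and beta rings, which hold the proteolytic sites. The 19S cap binds ubiquitinated proteins, removes the chains, and unfolds and feeds the substrate by means of its ATPase ring. In immune cells the catalytic beta subunits can be exchanged for Psmb8, Psmb9 and Psmb10, which form the immunoproteasome, and the PA28 cap of Psme1 and Psme2 can open the core. Both changes affect which peptides are made for MHC class I, a route in which cDC1 are specialised.

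Of the 50 genes, 14 rose in TMRM/MGhi cDC1 and 0 fell (limma over the whole array, Benjamini-Hochberg adjusted p under 0.05), and 28 and 0 had an unadjusted p under 0.05, as had 5653 of all 22206 probe sets in either direction. That is 28% of the genes called higher, against 5.28% of all probe sets tested, and 0 lower against 2.96%. Among the 4395 probe sets with a mean log2 signal of 10 or more, 12.2% were called higher, 5.76% lower, and 67.3% had a difference above 0, and 12 of the 39 proteasome genes that bright were called higher. The median log2 difference, TMRM/MGhi minus TMRM/MGlo, was 0.22 over the 50 genes, 0.01 over all probe sets and 0.10 over the bright ones. The difference was above 0 for 47 of the 50 genes (52.1% of all probe sets), for 43 after quantile normalization of the tested probe sets and for 46 after centring on array medians. In 24 genes all 4 TMRM/MGhi arrays lay above all 4 TMRM/MGlo arrays, an order seen in 9.7% of all probe sets, and the reverse order was found in 0 genes (6.37% of all probe sets). The shares of these orders were not taken over the bright probe sets alone, to which 39 of the 50 genes belong. In the plot of differences by gene 8 of the 14 called genes belong to the 20S core, and 0 belong to the ATPase ring, the immunoproteasome or PA28 (Psme1 to Psme3).

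**Figure D1:**
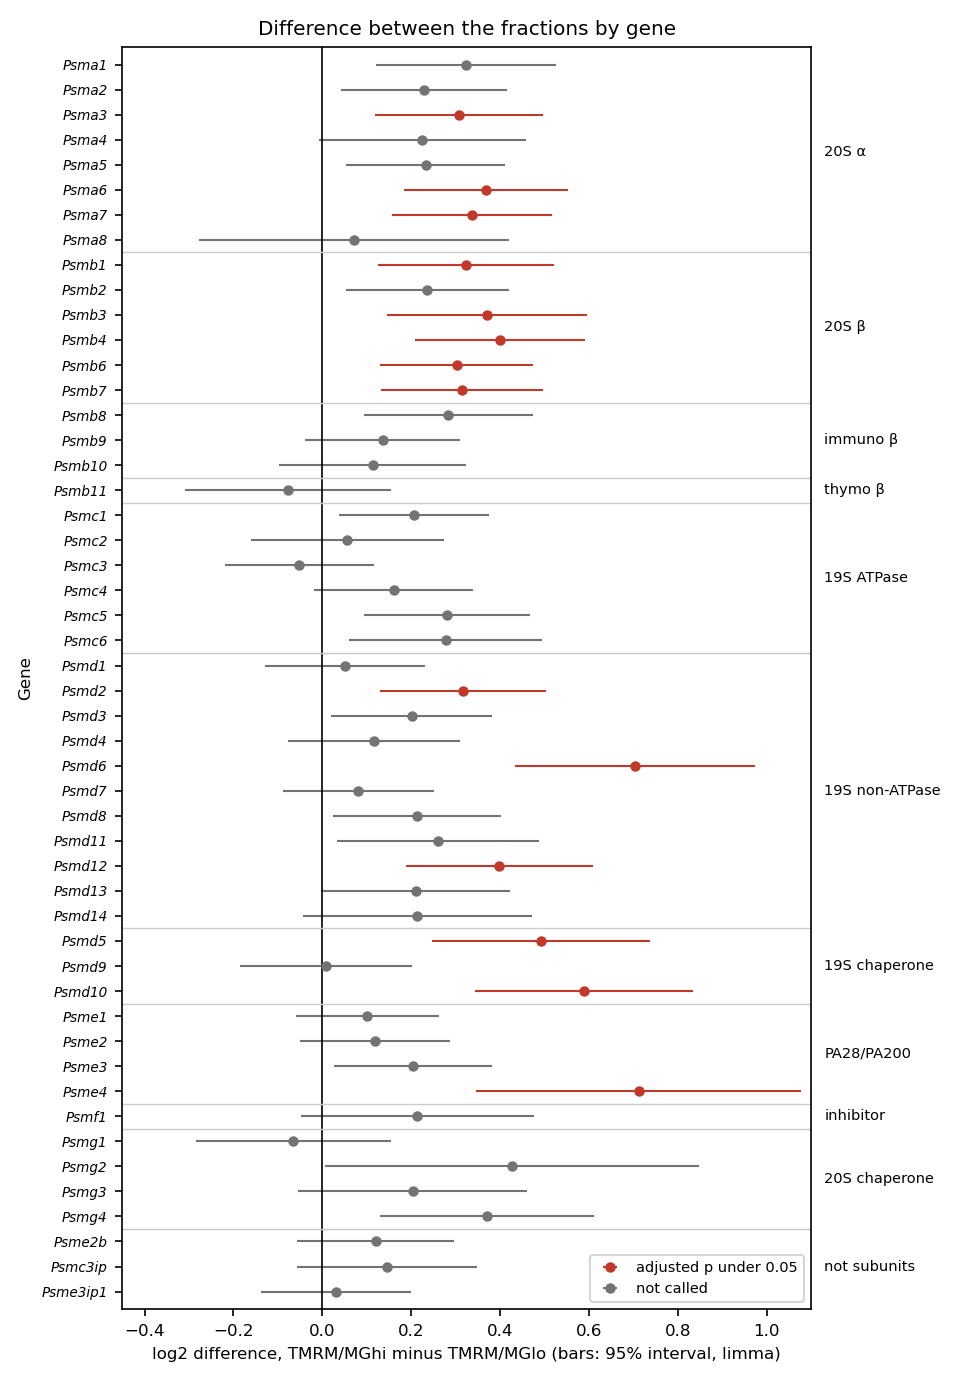
Log2 difference between the fractions, TMRM/MGhi minus TMRM/MGlo, for each of the 50 genes with its 95% interval from limma, grouped by subcomplex. The 14 called genes, in red, run from 0.30 (Psmb6) to 0.71 (Psme4), and the 3 values below 0 belong to Psmb11, Psmc3 and Psmg1.

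Values that moved with this result are given here once. Without low replicate 1, 2 or 4 the number of called genes was 2, 3 and 3, where 1.65%, 1.97% and 2.25% of all probe sets were called higher. Without high replicate 2, 3 or 4 it was 2 each, against 0.824%, 1.15% and 1.78%, so that calls fell over the whole array in these omissions. Psmd6 and Psmd10 were the genes that kept their call in all 8 omissions. The mean level of the poly-A spike-ins, bacterial control RNAs with probe sets on the array, lay between 5.99 and 6.96 in the TMRM/MGhi and between 7.27 and 7.85 in the TMRM/MGlo arrays. The level did not overlap between the fractions, so a fit with it as a covariate separates the level from the fraction only poorly. With this covariate limma called 0 of all 22206 probe sets, with 1132 at an unadjusted p under 0.05. It thus called 0 of the 50 (0 also unadjusted), whose median difference was 0.097, with 38 of the 50 differences above 0. The differences of the 14 genes in that fit ran from 0.08 (Psma3) to 0.68 (Psme4), with SEs of 0.16 to 0.38. A test without moderation and with unequal variances also called 0 of the 50, with 30 at an unadjusted p under 0.05, and over the whole array it called 11 probe sets higher and 30 lower, with 4572 at an unadjusted p under 0.05. After quantile normalization 6 of the 50 were called higher and after centring 8, and over the whole array quantile normalization gave 852 higher and 858 lower probe sets in place of 1173 and 658.

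Markers of other cells and states differed between the same fractions, where 5.28% of all probe sets were called higher and 2.96% lower. All 10 cDC1 markers lay above the negative control median and 0 of them passed the limma test (3 higher and 1 lower at an unadjusted p under 0.05), with a mean log2 level of 11.94 ± 0.076 in the TMRM/MGhi and 11.92 ± 0.12 in the TMRM/MGlo arrays (SD, n = 4 each). Of 11 plasmacytoid dendritic cell markers 9 rose, with array means of 10.04 to 10.42 against 9.41 to 9.56. Of 7 proliferation genes 4 rose (10.47 to 10.70 against 10.02 to 10.37), and of 7 T cell markers 5 fell (8.85 to 9.16 against 9.18 to 9.78). Of 6 neutrophil markers 1 fell (4 lower at an unadjusted p under 0.05; array means 8.66 to 9.81 against 9.76 to 10.56), and of 8 NK cell markers 1 rose (5 lower unadjusted; 8.57 to 9.36 against 8.85 to 9.84). By limma 0 of 7 cDC2 markers passed (1 higher and 1 lower unadjusted), as did 0 of 6 B cell and 0 of 8 red pulp macrophage markers (0 unadjusted in each). No measured marker of these lists lay below the negative control median. The part of these markers, and of the spike-in level, in the proteasome result was not tested, and in bulk samples a change in the share of a cell type and in RNA per cell cannot be told apart.

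**Figure D2:**
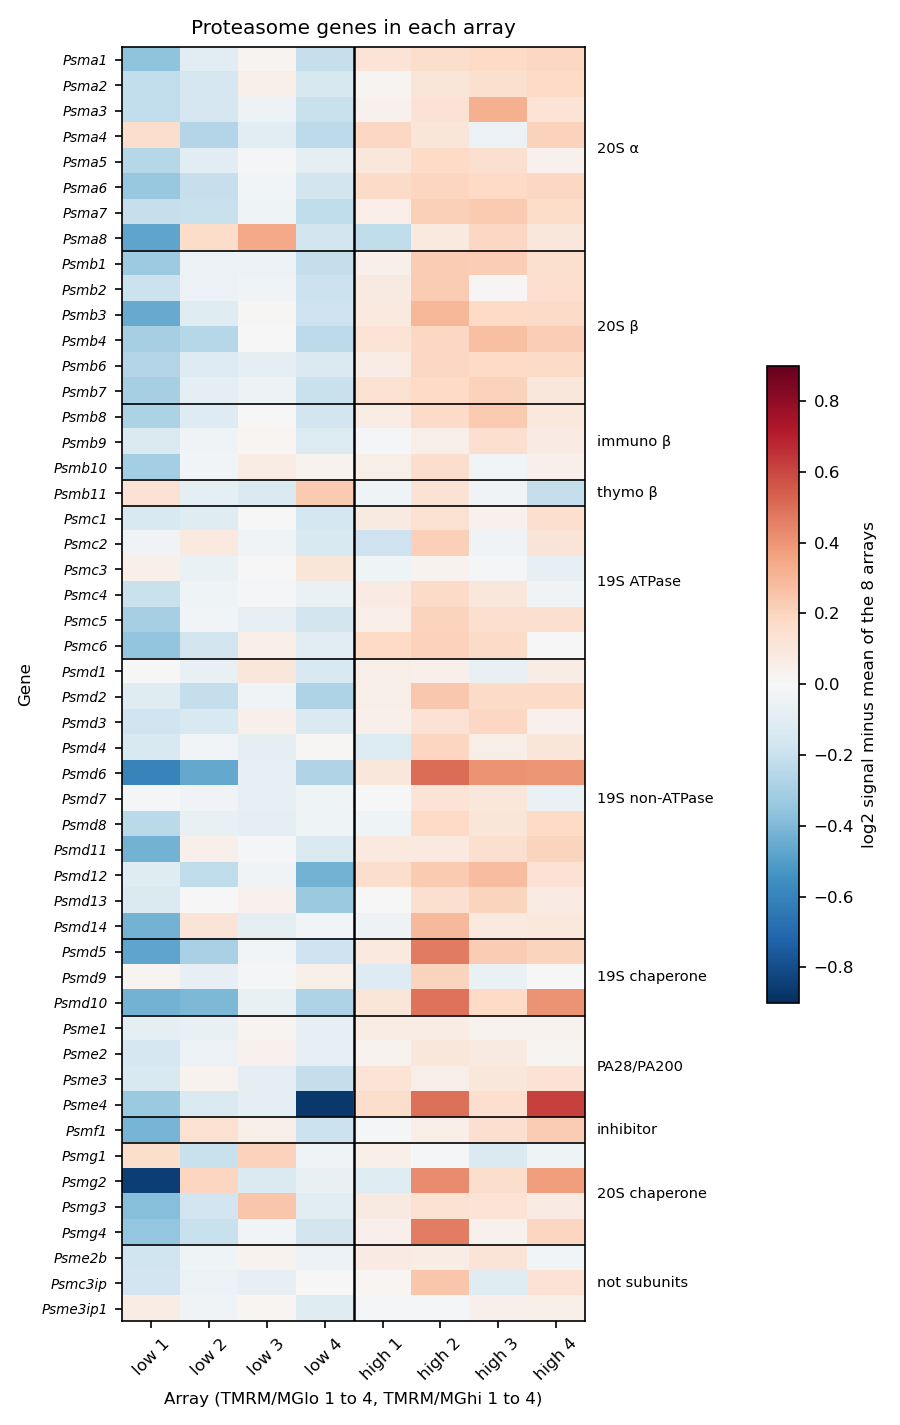
Log2 signal of each of the 50 genes in each array, as the difference from that gene's mean over the 8 arrays, with the TMRM/MGlo arrays left of the line and the TMRM/MGhi arrays right of it. Most cells are blue on the left and red on the right, and the darkest blue cells are Psme4 in low replicate 4 and Psmg2 in low replicate 1.

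The arrays within a fraction were ordered alike by many of the genes, as the heat map of genes by array shows. Low replicate 1 had the lowest value of its fraction in 33 of the 50 genes, and low replicate 3 the highest in 34. Over all probe sets tested these shares were 26.1% and 25.5%. High replicate 2 was highest in 27 genes and high replicate 1 lowest in 25, against 29.5% and 30.7% of all probe sets. The mean over the 50 genes was 10.67, 10.81, 10.89 and 10.76 in low replicates 1 to 4 and 10.94, 11.09, 11.02 and 11.03 in high replicates 1 to 4. The fractions did not overlap in this mean, and low replicate 3 and high replicate 1 were the nearest to each other. The mean level of the poly-A spike-ins was 7.74, 7.85, 7.27 and 7.35 in low replicates 1 to 4. In high replicates 1 to 4 it was 6.96, 6.19, 5.99 and 6.15, and its part in the order of the arrays was not tested.

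The alpha subunits form the outer rings of the core. Of 8 measured, Psma3, Psma6 and Psma7 rose, and the median difference of the 8 was 0.27. Over all probe sets 5.28% were called higher, and 12.2% of those with a mean of 10 or more. Psma6 had log2 signals of 11.46, 11.59, 11.77 and 11.63 in low replicates 1 to 4 and 11.97, 11.99, 11.98 and 11.98 in high replicates 1 to 4. The TMRM/MGhi arrays were almost level with each other and all lay above the TMRM/MGlo arrays, by a difference of 0.37 (SE 0.085, limma adjusted p = 0.0259). Psma7 was 11.77, 11.79, 11.94 and 11.76 in the TMRM/MGlo and 12.05, 12.20, 12.22 and 12.15 in the TMRM/MGhi arrays. Its fractions were also apart, with a difference of 0.34 (SE 0.082, adjusted p = 0.0306).

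Psma3 sat close to the threshold, at 12.08, 12.15, 12.25 and 12.10 against 12.34, 12.43, 12.62 and 12.42 (difference 0.31, SE 0.087, limma adjusted p = 0.049). Psma1 lay just outside it, with a difference of 0.32 (SE 0.093, adjusted p = 0.0529) and no overlap between the fractions. Psma2, Psma4 and Psma5 differed by 0.23, 0.22 and 0.23, none called, and of these only Psma5 had fractions that did not overlap. Psma8, the alpha subunit of the testis, was dim, with a mean of 7.07 ± 0.18 in the TMRM/MGhi arrays (SD, n = 4), a difference of 0.07 and a 95% interval of -0.28 to 0.42.

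The constitutive beta subunits include the catalytic Psmb5, Psmb6 and Psmb7 and the structural Psmb1 to Psmb4. Psmb5 was not analysed here. Of the 6 others measured, 5 rose (5.28% of all probe sets), and all 6 had fractions that did not overlap (9.7% of all probe sets). Their differences lay between 0.24 and 0.40, with a median of 0.32. The largest was Psmb4, at 11.87, 11.91, 12.16 and 11.93 in low replicates 1 to 4 and 12.29, 12.35, 12.44 and 12.39 in high replicates 1 to 4. This difference of 0.40 (SE 0.088, limma adjusted p = 0.022) corresponds to 1.32-fold.

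Psmb6, the caspase-like catalytic subunit, was 11.47, 11.61, 11.65 and 11.60 in the TMRM/MGlo and 11.80, 11.92, 11.91 and 11.91 in the TMRM/MGhi arrays. Apart from high replicate 1, the TMRM/MGhi values were almost the same, and the difference was 0.30 (SE 0.079, limma adjusted p = 0.0385). Psmb7, the trypsin-like subunit, was 11.15, 11.37, 11.41 and 11.25 against 11.59, 11.63, 11.66 and 11.56, a difference of 0.31 (SE 0.084, adjusted p = 0.0411) with low replicate 1 the lowest. The structural subunits Psmb3 (0.37, adjusted p = 0.048) and Psmb1 (0.32, adjusted p = 0.0496) passed narrowly, and Psmb2 (0.24, adjusted p = 0.104) did not pass.

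Of the 3 immunoproteasome subunits 0 passed the test, and 1 had an unadjusted p under 0.05. Psmb8, which takes the place of the chymotrypsin-like Psmb5, was 12.07, 12.23, 12.36 and 12.18 in low replicates 1 to 4 and 12.42, 12.52, 12.59 and 12.44 in high replicates 1 to 4. The fractions did not overlap, and the difference was 0.28 (SE 0.087, 95% interval 0.09 to 0.47, limma adjusted p = 0.0666). Psmb8 was called with an intensity trend and robust fit, and without low replicate 3.

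Psmb9, which replaces Psmb6, was 12.73, 12.83, 12.88 and 12.74 in the TMRM/MGlo and 12.85, 12.92, 13.02 and 12.94 in the TMRM/MGhi arrays. High replicate 1 lay below low replicate 3, and the difference was 0.14 (SE 0.08, 95% interval -0.04 to 0.31, limma adjusted p = 0.317). Psmb10, which replaces Psmb7, was 10.01, 10.29, 10.38 and 10.35 against 10.37, 10.47, 10.29 and 10.36. Its fractions overlapped in most arrays, and low replicate 1 alone stood lower (difference 0.11, SE 0.096, 95% interval -0.10 to 0.32, adjusted p = 0.505). Without that array the difference of Psmb10 was 0.03. The thymus-specific Psmb11 was dim and differed by -0.08 (95% interval -0.31 to 0.16).

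Each immuno-subunit was then set against the constitutive subunit that it replaces, within each array. Levels of different probe sets are not comparable, so the size of such a difference has no meaning of its own and only its change between the fractions was read. Reading the change assumes that both probe sets of a pair respond alike to a change in RNA, which was not tested. RefSeq also lists pseudogenes of Psmb6 and Psmb7, so their values are uncertain to that extent. Psmb9 minus Psmb6 was 1.26, 1.22, 1.24 and 1.14 in low replicates 1 to 4 and 1.05, 0.999, 1.11 and 1.03 in high replicates 1 to 4. All TMRM/MGhi arrays lay below all TMRM/MGlo arrays, with a change of -0.17 on the log2 scale (two-sided exact permutation p = 0.0286, the smallest that 4 against 4 arrays allow, and 0.0286 adjusted over the 2 pairs).

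Psmb10 minus Psmb7 was -1.14, -1.08, -1.02 and -0.91 in the TMRM/MGlo and -1.22, -1.16, -1.37 and -1.20 in the TMRM/MGhi arrays. The TMRM/MGhi arrays again lay below all the others, by a change of -0.20 (two-sided exact permutation p = 0.0286, adjusted 0.0286). Relative to the subunit replaced, both immuno-subunits were thus lower in the TMRM/MGhi fraction, where their own levels were 0.14 and 0.11 higher and those of Psmb6 and Psmb7 0.30 and 0.31 higher. After quantile normalization the changes were -0.12 and -0.21 and neither passed (exact permutation, adjusted p = 0.0571 for each). No such comparison was made for Psmb8.

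**Figure D3:**
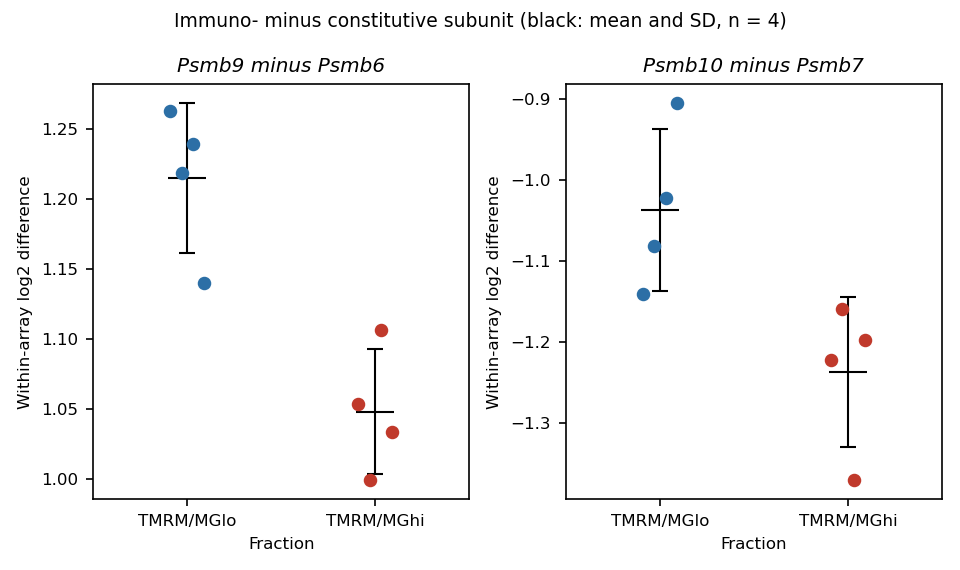
Within-array log2 difference between an immuno-subunit and the constitutive subunit it replaces, for Psmb9 and Psmb6 on the left and Psmb10 and Psmb7 on the right, with 1 point per array and black bars for the mean and SD (n = 4). The vertical axes do not start at 0; in both panels the TMRM/MGhi points lie below all TMRM/MGlo points.

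The PA28 activator caps the core without ATP. Its alpha and beta subunits Psme1 and Psme2 are induced by interferon gamma together with the immunoproteasome, and Psme3 forms a separate nuclear ring. Of these 3, 0 passed the test and 1, Psme3, had an unadjusted p under 0.05. Psme1 was 13.24, 13.27, 13.36 and 13.26 in the TMRM/MGlo and 13.40, 13.40, 13.37 and 13.37 in the TMRM/MGhi arrays, a narrow separation without overlap (difference 0.10, SE 0.074, 95% interval -0.06 to 0.26). Psme2 differed by 0.12 (SE 0.077, 95% interval -0.05 to 0.29) with overlap, and Psme3 by 0.20 (SE 0.081, limma adjusted p = 0.144) without overlap.

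Psme4 encodes PA200, another ATP-independent cap that acts in the nucleus, and it had the largest difference of the 50 genes. Its log2 signals were 7.86, 8.06, 8.10 and 7.32 in low replicates 1 to 4 and 8.35, 8.69, 8.34 and 8.81 in high replicates 1 to 4. Low replicate 4 was the lowest and the fractions did not overlap (difference 0.71, SE 0.17, limma adjusted p = 0.0278, 1.64-fold). The call held in 4 of the 8 omissions of an array, with differences from 0.54 to 0.80. Psmf1, the inhibitor PI31, differed by 0.21 (SE 0.12, adjusted p = 0.292) with overlapping fractions, and by 0.11 without low replicate 1.

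In the 19S cap 3 of 17 subunits rose, with a median difference of 0.21. Of all probe sets 5.28% were called higher. Of those with a mean of 10 or more 12.2% were, with a median difference of 0.10. Of the 6 ATPases of the base 0 passed, 3 had an unadjusted p under 0.05, and their differences ran from -0.05 (Psmc3) to 0.28 (Psmc5, limma adjusted p = 0.0642). With the intensity trend and robust fit Psmc1 and Psmc5 were called. Among the 11 non-ATPases all differences were above 0, from 0.05 (Psmd1) upward, and Psmd2, Psmd6 and Psmd12 rose.

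Psmd6, a subunit of the 19S lid, was 9.47, 9.60, 9.99 and 9.79 in the TMRM/MGlo and 10.17, 10.57, 10.47 and 10.46 in the TMRM/MGhi arrays. Low replicate 3 and high replicate 1 came nearest to each other, and the difference was 0.70 (SE 0.12, limma adjusted p = 0.0105, 1.63-fold). It stayed between 0.62 and 0.80 when any 1 array was left out, with a highest adjusted p of 0.0385, and was 0.13 (SE 0.20) with the spike-in covariate. Psmd12, also of the lid, was 10.81, 10.69, 10.88 and 10.49 against 11.07, 11.15, 11.19 and 11.05, without overlap (difference 0.40, SE 0.096, adjusted p = 0.0299).

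Psmd2, the scaffold of the base that docks ubiquitin receptors, was 11.14, 11.04, 11.22 and 10.97 in the TMRM/MGlo and 11.30, 11.49, 11.42 and 11.42 in the TMRM/MGhi arrays (difference 0.32, SE 0.086, limma adjusted p = 0.0439). The deubiquitinase of the lid, Psmd14, differed by 0.21 (adjusted p = 0.285), and the ubiquitin receptor Psmd4 by 0.12 (adjusted p = 0.454). The other non-ATPase subunits differed by 0.05 to 0.26, none called.

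Assembly factors build the particles and are not part of the finished proteasome. Of the 3 chaperones of the 19S base, Psmd5 and Psmd10 rose (5.28% of all probe sets) and Psmd9 differed by 0.01 (95% interval -0.18 to 0.20). Psmd10, known as gankyrin, was 9.99, 10.01, 10.35 and 10.13 in low replicates 1 to 4 and 10.52, 10.91, 10.59 and 10.82 in high replicates 1 to 4. The fractions were apart, with a difference of 0.59 (SE 0.11, limma adjusted p = 0.0138) that stayed between 0.52 and 0.67 when any 1 array was left out (highest adjusted p = 0.0485) and was 0.21 (SE 0.22) with the spike-in covariate.

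Psmd5 was 8.36, 8.55, 8.81 and 8.65 in the TMRM/MGlo and 8.93, 9.31, 9.07 and 9.04 in the TMRM/MGhi arrays, a difference of 0.49 (SE 0.11, limma adjusted p = 0.0254). Of the 4 chaperones of the 20S core, Psmg1 to Psmg4, 0 passed and 2 had an unadjusted p under 0.05. Psmg2 had a difference of 0.43 with an SE of 0.19, and low replicate 1 lay at 7.73 where the other TMRM/MGlo arrays lay at 8.45 to 8.77. Without low replicate 1 the difference of Psmg2 was 0.22. Psmg4 differed by 0.37 (adjusted p = 0.0602) without overlap, and Psmg1 by -0.07.

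The symbol pattern also took in 3 genes that are not proteasome subunits, and 0 of them passed. Psmc3ip, a meiotic recombination factor, differed by 0.15, and Psme3ip1, which binds PA28 gamma, by 0.03 (-0.04 after quantile normalization). Psme2b, a close copy of Psme2, differed by 0.12, as did Psme2 itself. The probe sets of this pair may share targets, and RefSeq lists pseudogenes of Psma5, Psmb6 and Psmb7, so the values of these genes are uncertain to that extent.

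**Figure D4:**
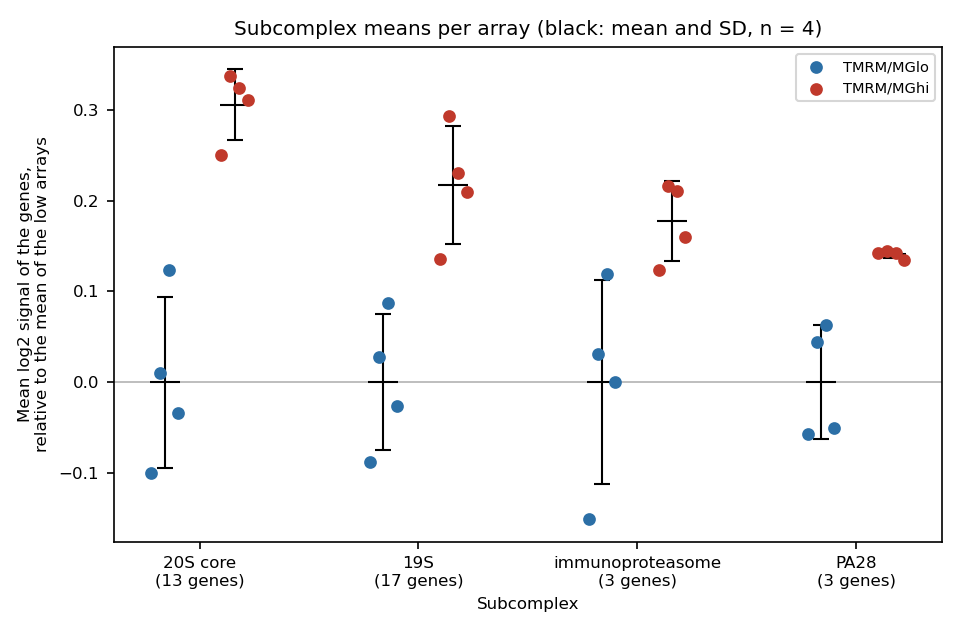
Mean log2 signal over the genes of each subcomplex in each array, relative to the mean of the 4 TMRM/MGlo arrays, with black bars for the mean and SD (n = 4). The TMRM/MGhi arrays lie above the TMRM/MGlo arrays in each of the 4 subcomplexes, and the step is largest for the 20S core.

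The plot of subcomplex means per array sets the steps of the subcomplexes side by side. The mean over 13 core genes (Psma1 to Psma7, Psmb1 to Psmb4, Psmb6 and Psmb7) was 12.05 ± 0.039 in the TMRM/MGhi and 11.74 ± 0.094 in the TMRM/MGlo arrays (SD, n = 4). The 17 cap subunits had 10.95 ± 0.065 against 10.73 ± 0.075, the 3 immuno-subunits 11.93 ± 0.044 against 11.76 ± 0.11, and Psme1 to Psme3 12.59 ± 0.0042 against 12.45 ± 0.062. Median differences were 0.31 for the core, 0.21 for the cap, 0.14 for the immuno-subunits and 0.12 for PA28. Single genes ran from 0.22 to 0.40 in the core and from -0.05 to 0.70 in the cap. In the immuno-subunits they ran from 0.11 to 0.28, and in PA28 from 0.10 to 0.20. The groups also differ in signal level, and its part in these steps was not tested. With the spike-in covariate the median of the immuno-subunits was -0.0032.

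Within an array, the core mean minus the mean of the immuno-subunits was 0.10 to 0.14 in the TMRM/MGhi and -0.05 to 0.04 in the TMRM/MGlo arrays, a change of 0.13 without overlap. Core minus PA28 changed by 0.16 and core minus cap by 0.09, also without overlap between the fractions. Cap minus immuno-subunits (0.04), cap minus PA28 (0.08) and immuno-subunits minus PA28 (0.04) overlapped. These contrasts are over genes grouped with earlier results known and are given without a test.

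Partners of the proteasome were counted from a list of 27 genes, of which 20 were measured. Of these 1 rose and 0 fell (5.28% and 2.96% of all probe sets), with 8 and 0 at an unadjusted p under 0.05 and a median difference of 0.15. The gene that rose was Uchl5, a deubiquitinase bound to the cap (0.46, SE 0.11, limma adjusted p = 0.0261), with adjusted p from 0.0119 to 0.0833 when 1 array was left out. Pomp, the chaperone that completes the core, came next to the threshold at 0.27 (adjusted p = 0.0519), and Vcp, the unfoldase upstream of the proteasome, differed by 0.45 (adjusted p = 0.061) with overlapping fractions. Nfe2l1, the transcription factor known to restore proteasome genes when activity falls, differed by 0.13 (adjusted p = 0.377).

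Peptide handling for MHC class I follows the proteasome. Of 16 genes measured in a list of 18, 1 rose and 0 fell (5.28% and 2.96% of all probe sets). The unadjusted p was under 0.05 for 5 higher and 0 lower genes. The gene that rose was the endoplasmic reticulum chaperone Canx (0.34, SE 0.089, limma adjusted p = 0.0385). Tpp2 (0.40, adjusted p = 0.0527) and Erap1 (0.32, adjusted p = 0.0656), peptidases that trim what the proteasome releases, lay just outside. Canx lost its call after quantile normalization and after centring, its adjusted p ran from 0.0192 to 0.104 when 1 array was left out, and with the replicate number as a block 3 genes of the list were called. The heavy chains H2-K1 and H2-D1 both differed by 0.04 and B2m by 0.05, with intervals that include 0.

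Of 9 measured genes that act in induction of the immunoproteasome, in a list of 11, 0 rose and 1 fell (5.28% and 2.96% of all probe sets). At an unadjusted p under 0.05, 2 were higher and 1 lower. The fall was in Tyk2, a kinase of interferon receptors, from 11.50 to 11.06 (difference -0.44, SE 0.08, limma adjusted p = 0.0117), and its call held when any 1 array was left out (highest adjusted p = 0.0442). Irf1, the transcription factor that drives Psmb9 and Tap1 after interferon, differed by -0.19 (95% interval -0.39 to 0.01), and Irf8 by -0.17 (95% interval -0.35 to 0.02).

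Psmb9 and Psmb8 lie in the MHC region beside the genes of the peptide transporter, in the order Psmb9, Tap1, Psmb8, Tap2 in the RefSeq gene table. The starts of Psmb9 and Tap1 point away from each other and are 226 bases apart. Tap1 differed by -0.01 (95% interval -0.17 to 0.16) where Psmb9 differed by 0.14, and the 2 values were not tested against each other. Psmb8 differed by 0.28 and Tap2 by 0.26 (limma adjusted p of Tap2 = 0.12).

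Promoters were taken from RefSeq (GRCm38.p6), which held 42 of the 50 genes and 12 of the 14 called. Each window of 300 bases, 250 before the start and 50 after it, was searched on both strands for 10 motifs. Shares over promoters refer to all 32851 in RefSeq, which were not limited to genes on the array. CCGGAAG, the core of sites for ETS factors, was in 16 of the 42 genes (38.1%) and in 8.86% of 32851 promoters. It was present in 5 of the 12 called and 11 of the 30 other genes. TGACNNNGC, the core of the antioxidant response element that NFE2L1 and NFE2L2 bind, was in 5 of 42 (11.9%), against 12.4% of all promoters. The called genes with it were Psmb6, Psmd12 and Psme4.

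Both interferon motifs were searched. TTCNNNGAA, the STAT-type GAS core, was in 3 of 42 genes (7.14%, against 8.3% of promoters), among them Psmb8, and the core of the interferon-stimulated response element in 5 of 42 (11.9%, against 3.44%), among them Psme1. The other motifs were CCAAT in 16 genes (37.4% of promoters), the NRF1 site in 7 (4.6%), GGGCGG in 24 (35.7%), CACGTG in 5 (7.15%), TGACG in 18 (20.8%) and TGANNNNGC in 24 (41.3%). TGANNNNGC includes every TGACNNNGC match, and TGACG can overlap it. A match describes the letters and no binding was measured.

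The 150 bases before the start are printed as examples for 3 of the 5 called genes with an ETS core, Psmd6, Psme4 and Psmd12, and for Psmb8 and Psmb9, whose differences were not called. Capitals mark CCGGAAG or its reverse complement in Psmd6 (chr14:14120946-14121095, minus strand), Psme4 (chr11:30771625-30771774, plus strand) and Psmd12 (chr11:107479378-107479527, plus strand), and TTCNNNGAA in Psmb8 (chr17:34198045-34198194, plus strand). Psmb9 (chr17:34187331-34187480, minus strand) has no capitals, since neither motif was found there. Its stretch lies between the starts of Psmb9 and Tap1 and is printed on the strand of Psmb9.
Psmd6: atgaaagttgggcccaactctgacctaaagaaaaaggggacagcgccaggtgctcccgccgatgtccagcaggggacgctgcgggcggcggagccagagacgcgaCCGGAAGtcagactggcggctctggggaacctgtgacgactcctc
Psme4: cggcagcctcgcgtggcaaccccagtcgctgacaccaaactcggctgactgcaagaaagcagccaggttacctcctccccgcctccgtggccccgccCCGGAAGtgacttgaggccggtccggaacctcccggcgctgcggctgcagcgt
Psmd12: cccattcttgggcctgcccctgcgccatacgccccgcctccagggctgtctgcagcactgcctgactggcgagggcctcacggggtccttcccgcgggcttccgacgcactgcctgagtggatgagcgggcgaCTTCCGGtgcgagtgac
Psmb8: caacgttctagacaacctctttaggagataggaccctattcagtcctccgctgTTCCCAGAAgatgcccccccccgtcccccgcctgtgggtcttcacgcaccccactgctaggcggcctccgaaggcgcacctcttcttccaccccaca
Psmb9: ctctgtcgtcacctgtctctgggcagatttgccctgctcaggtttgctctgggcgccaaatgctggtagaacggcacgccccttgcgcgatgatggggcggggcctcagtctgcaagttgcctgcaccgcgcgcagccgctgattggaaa

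The motif began 45 bases before the start in Psmd6, 53 in Psme4 and 17 in Psmd12, where it stood on the opposite strand, and these genes differed by 0.70, 0.71 and 0.40. In Psmb8 the GAS core began 97 bases before the start. Genes with an ETS core were found among called and other genes alike, as counted above.

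The number of called genes moved with the settings, as the bar chart of calls by setting shows. The 14 calls were kept whole when dim probe sets were left out (17 called), with an intensity trend and robust fit (25 called) and without low replicate 3 (18 called). Over all probe sets tested the share called higher also rose in these settings, to 8.07%, 8.78% and 7.57%. The 6 that held after quantile normalization were Psma6, Psmb4, Psmd5, Psmd6, Psmd10 and Psme4, and all 6 were also among the 8 called after centring.

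**Figure D5:**
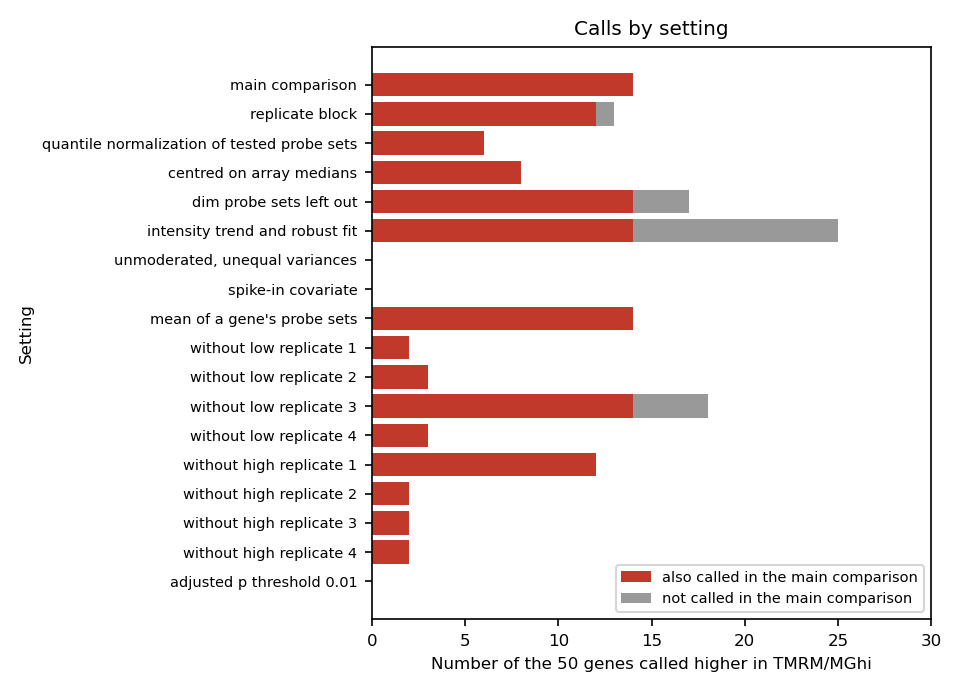
Number of the 50 genes called higher in TMRM/MGhi cDC1 under each setting, with red for genes also called in the main comparison and grey for the others. The bars run from 0 (unmoderated test, spike-in covariate and the threshold of 0.01) to 25 (intensity trend and robust fit), and the main comparison has 14.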

How the data were processed

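The values are the log2 signals that the authors deposited for 8 arrays, made with RMA in Affymetrix Expression Console 1.1 per the submitters' processing notes, from RNA labelled with the Whole Transcript Plus kit per the labels. RMA includes a normalization between arrays, so each difference is read against the rest of the array; the medians of the tested probe sets still ran from 8.11 to 8.16 over the arrays. No build of the array annotation is named in the sources used here. With 4 arrays a fraction, the array number sets the precision. Of 28846 rows, 6640 control probe sets were left out and 22206 tested, of which 19572 were named by the platform annotation. The fractions were compared with lmFit and eBayes of limma 3.58.1 (R 4.3.3), two-sided, without a block, with Benjamini-Hochberg adjustment over all 22206 and a threshold of 0.05. The procedure was tested on simulated data with noise independent between probe sets, a simpler setting than these arrays. Exact permutation tests used scipy 1.17.1. By rule the text names Psmb6 to Psmb10, Psme1 to Psme4, Psmf1, all called genes, the 6 largest differences and symbol matches that are no subunit, and up to 6 called genes of each related list; other genes named beside counts were chosen after their values were seen. Members, lists and tests were chosen with earlier results of these data known, the spike-in covariate among them. Replicate numbers were not taken as pairs: deviations from the group means correlated at 0.27, 0.055, 0.015 and 0.039 between arrays of numbers 1 to 4.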

Additional observations from a re-analysis of the deposited data

Results flagged for a closer look

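In 2 of the 100 sets of 4 arrays examined (50 genes in each fraction) a single array stood apart by Dixon's criterion, which chance alone meets in about 1 of 20. Psma7 in low replicate 3 was 11.94, where the other TMRM/MGlo arrays lay between 11.76 and 11.79, so the array nearest to the TMRM/MGhi values was the one apart. Psmb6 in high replicate 1 was 11.80, below the other TMRM/MGhi arrays at 11.91 to 11.92.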

How the results depend on the processing

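Of the 50 proteasome genes, 14 were called higher; the count was 6 after quantile normalization, 8 after centring, 25 with an intensity trend and robust fit, and 0 with the unmoderated test, with the spike-in covariate and at a threshold of 0.01. Leaving out 1 array gave 2 to 18. The cause of these moves was not tested. With the replicate number as a block 13 were called, 12 of them among the 14; Psmb7 and Psmd2 were lost and Psmg2 gained, while the same-numbered arrays were not shown to be pairs, and correlations between arrays of like number ran from 0.015 to 0.27. Partners called higher (1) were 2 without dim probe sets, 6 with the trend, 0 with the unmoderated test, the covariate or the stricter threshold, and 0 to 3 without 1 array. Peptide handling genes called higher (1) were 3 with the replicate block, 2 without dim probe sets, 4 with the trend, 0 with quantile normalization, centring, the unmoderated test, the covariate or the stricter threshold, and 0 to 3 without 1 array. Inducers called higher (0) were 2 with the trend, and called lower (1) were 0 with the unmoderated test, the covariate or the stricter threshold and 1 in each omission. Median differences after quantile normalization were 0.16 (all 50), 0.23 (core), 0.14 (cap), 0.096 (immuno-subunits) and 0.091 (PA28). With the covariate the medians were 0.097 (all 50), 0.14 (core), 0.11 (cap), -0.0032 (immuno-subunits, reversed) and 0.084 (PA28). Without 1 array they ran from 0.19 to 0.26 (all 50), 0.27 to 0.35 (core), 0.17 to 0.24 (cap), 0.11 to 0.16 (immuno-subunits) and 0.088 to 0.15 (PA28). The changes of Psmb9 minus Psmb6 and Psmb10 minus Psmb7 were -0.12 and -0.21 after quantile normalization (exact permutation, adjusted p = 0.0571 each); without 1 array they ran from -0.19 to -0.15 and from -0.23 to -0.16, where 0.0571 is the smallest adjusted p the exact test allows. With the covariate 38 of the 50 differences were above 0, and those that turned below 0 included Psmb10 (-0.0032), Psmb9 (-0.0090) and Psmg2 (-0.026). After quantile normalization 43 were above 0, and Psme3ip1 was among those that turned (-0.040). Psme3ip1 also turned below 0 without low replicate 4 (-0.00039, the lowest of its omissions, which reached 0.059). Each gene had 1 probe set, so averaging probe sets moved no member.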
